A study of Mus musculus with 14 samples.

Results

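Pituitary lineage genes were followed in heads of E12.5 mouse embryos that carried both, 1 or no working copy of Zcchc8. The set was 8 genes chosen by name, of 67811 loci in the data: Pitx1, Hesx1, Six6, Lhx3, Lhx4, Tbx19, Pou1f1 and Cga. For each symbol, the locus that carries it was taken, or the one with the highest mean where several do. RNA came from whole heads of C57BL/6J mice, so the pituitary primordium was a small part of each sample and was not separated from brain, eye, jaw and skin. There were 5 Zcchc8+/+ (WT), 3 Zcchc8+/- (HET) and 6 Zcchc8-/- (KO) libraries, with no treatment. The nature of the Zcchc8 allele is not stated in the labels, which also do not tie each library to an embryo of its own, so p-values measure the spread between these libraries. Whether a difference comes from fewer pituitary cells or from less RNA per cell cannot be told apart in such samples.

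The anterior pituitary forms from oral ectoderm that folds up as Rathke's pouch against the floor of the hypothalamus. The homeodomain factors PITX1, HESX1 and SIX6 act early in the pouch, the LIM-homeodomain factors LHX3 and LHX4 are needed for it to grow and mature, and later factors set the hormone lineages. TBX19 directs corticotropes, which make POMC, and POU1F1 directs somatotropes, lactotropes and thyrotropes. CGA, the hormone subunit shared by the glycoprotein hormones, is among the first pituitary products to appear. ZCCHC8 is the scaffold of a nuclear complex that delivers short and unstable transcripts to the RNA exosome, which degrades them.

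Levels are in FPKM, fragments scaled to transcript length and to the total, as the authors deposited them. Differences between genotypes are differences of mean log2(FPKM + 0.1), which understate the change of low genes. They were tested with limma-trend over the 18217 loci that reached 0.5 FPKM in at least 3 libraries, with Benjamini-Hochberg adjustment and a threshold of 0.05. Total depth is unknown. Zcchc8 RNA ranged from 36.5 to 42.3 FPKM in WT, 24.0 to 27.2 in HET and 9.27 to 20.6 in KO libraries. The libraries KO1 and KO2 stood apart in Hand2 and in Hox RNA. Hand2, a factor of the lower jaw mesenchyme and heart, was at 0.417 and 0.233 FPKM in them, against 9.05 to 12.6 in the other KO and 6.31 to 10.9 in the WT libraries. An FPKM of exactly 0 may be a missing estimate, since 570 of 8198 loci with a mean above 10 FPKM are listed at 0 in some library.

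None of the pituitary genes that could be tested was called between the Zcchc8 genotypes. Pitx1, Six6, Lhx3, Lhx4 and Cga passed the filter on low values, and 0 of these 5 were called in KO against WT, HET against WT or KO against HET by limma-trend, with 0 at an unadjusted p under 0.05 as well. Over all tested loci, 24.6% were called in KO against WT, 0.00549% in HET against WT and 22.3% in KO against HET. The median log2 difference of the 5 genes between KO and WT was 0.05, beside -0.0019 over all tested loci. From HET to KO the log2 differences were -0.50 for Pitx1, 0.18 for Six6, 0.08 for Lhx3, 0.15 for Lhx4 and -0.02 for Cga. Hesx1, Tbx19 and Pou1f1 lay under the filter, and of these Hesx1 was higher in KO than in WT heads.

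**Figure D1:**
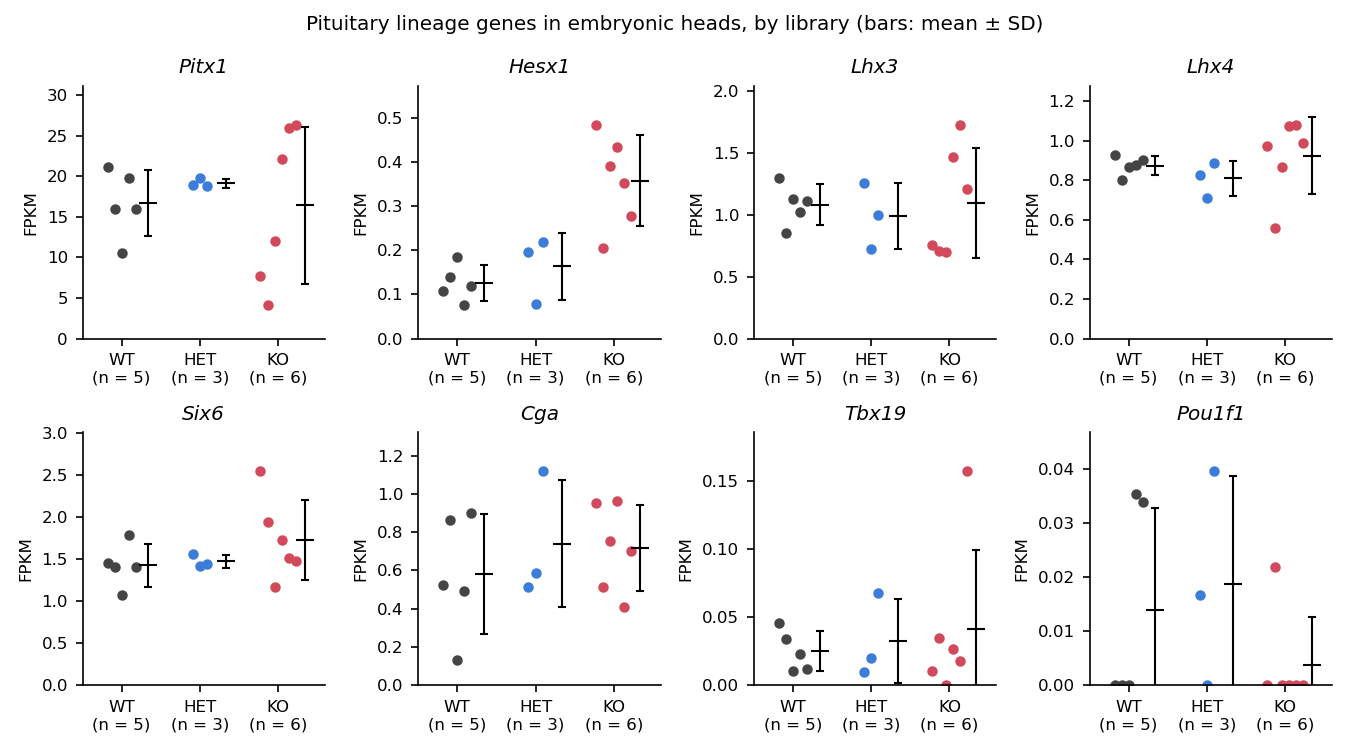
FPKM of the 8 pituitary lineage genes (y axes, 1 scale per gene) in WT, HET and KO libraries (points), with the mean and SD at the right of each group, cut at 0 where the SD reaches below it. Only Hesx1 has every KO library above every WT library, while Pitx1 and Lhx3 spread more widely in KO than in WT.

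In WT heads the levels per length ran in the order Pitx1, Six6, Lhx3, Lhx4, Cga, Hesx1, Tbx19 and Pou1f1. Pitx1 stood clear of the rest at 16.7 ± 4.09 FPKM (SD, n = 5), its lowest WT library at 10.6 and the highest WT value of Six6 at 1.79. The WT ranges of Six6 and Lhx3, of Lhx3 and Lhx4, of Lhx4 and Cga, of Cga and Hesx1, and of Tbx19 and Pou1f1 overlapped, while those of Hesx1 and Tbx19 did not. Within libraries, Lhx3 was above Lhx4 in 5 of 5 WT libraries and Cga above Hesx1 in 4 of 5, WT3 being the exception. Pitx1 is also a gene of the first pharyngeal arch and of oral ectoderm, Six6 of the retina and Lhx3 and Lhx4 of brainstem and spinal motor neurons and interneurons, so their RNA in a whole head is not pituitary RNA alone.

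Pitx1, a paired-type homeodomain factor, lies on chromosome 13 from 55825051 to 55836192 on the minus strand (mm10) and has 3 exons in GENCODE M21. Its locus also carries the name RP23-44N12.3, so fragments of both were counted together. The WT libraries held 21.1, 16.0, 10.6, 19.8 and 15.9 FPKM, the HET libraries 18.9, 19.8 and 18.8, and the KO libraries 7.74, 4.15, 12.0, 22.2, 26.0 and 26.4. The KO libraries fell on both sides of the WT range: KO1 and KO2 were below every WT library, and KO4, KO5 and KO6 were above every one. The mean of 16.4 ± 9.69 FPKM in KO (SD, n = 6) was close to the WT mean, with more than the WT spread around it. KO differed from WT by -0.27 on the log2 scale (SE 0.44, 95% interval -1.23 to 0.69, limma-trend adjusted p = 0.725). HET heads were at 19.1 ± 0.55 FPKM (SD, n = 3), a log2 difference of 0.24 from WT (interval -0.92 to 1.40, limma-trend adjusted p = 1).

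The lowest Pitx1 values came in the libraries with little Hand2. As a percentage of the WT mean, Pitx1 was at 46.4 in KO1 and 24.9 in KO2, and Hand2 at 4.52 and 2.52. Without KO1 and KO2, a choice made after seeing the data, the log2 difference of Pitx1 turned to 0.35 (SE 0.24, limma-trend adjusted p = 0.352), and without KO2 alone to 0.07. The 11 listed genes of first-arch mesenchyme, Hand2 among them, summed to between 230.1 and 277.4 FPKM in WT, 253.7 and 272.7 in HET and 178.7 and 299.8 in KO. KO2 was the lowest at 178.7, and KO1, also low in Pitx1, was at 260.1, inside the WT range. The sum hides opposite moves of single genes in KO1. Hand2, Dlx5 at 18.6 FPKM and Dlx6 at 9.93 FPKM were below every WT library there. Msx1 at 41.9 and Msx2 at 14.4 FPKM were above every WT library, and the other listed genes lay inside the WT range. None of the 11 was called in KO against WT, where 24.6% of all tested loci were, and none was at 0 in any library. The part of jaw tissue in the spread of Pitx1 was not tested.

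Over the 14 libraries, the 3 loci whose log2 values followed those of Pitx1 most closely among 14058 compared were Gsc (Pearson r = 0.97), Cdkn1c (0.96) and Igf2os (0.94). Gsc encodes goosecoid, a homeodomain factor of the jaw and head mesenchyme. It was at 7.13 FPKM in KO1 and 4.28 in KO2, and at 12.4, 13.7 and 13.2 in KO4, KO5 and KO6, against 7.82 to 11.4 in WT. Cdkn1c encodes a cyclin-dependent kinase inhibitor and Igf2os is antisense to Igf2. Without KO1 and KO2 the correlations were 0.95, 0.91 and 0.79. These points share libraries and their tissue content, and the correlations are given as a description of them.

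**Figure D2:**
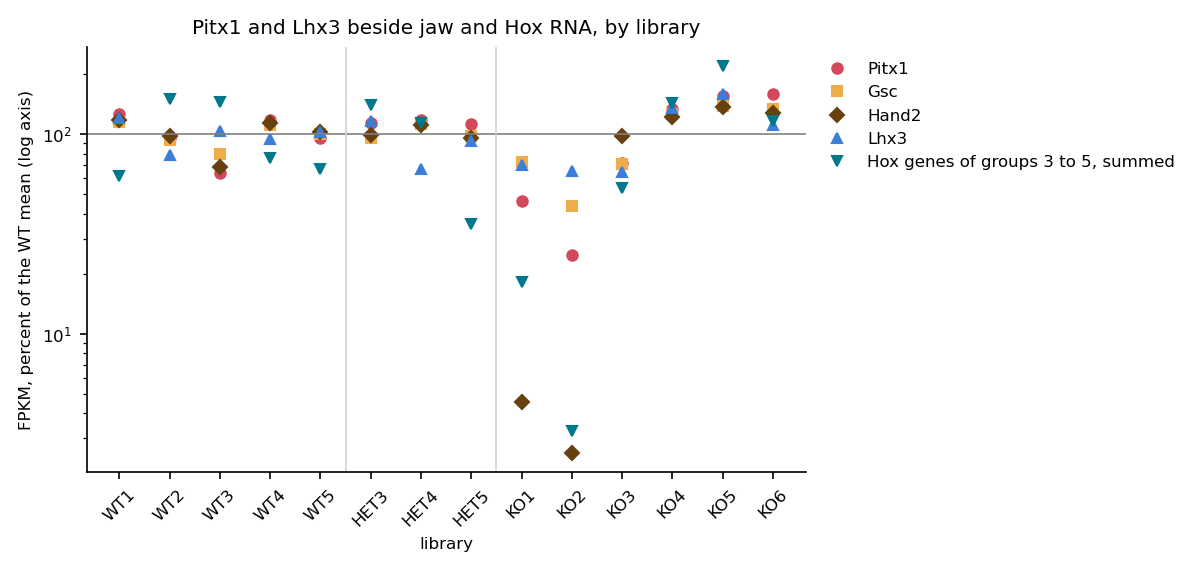
FPKM as a percentage of the WT mean (y axis, log scale) in each of the 14 libraries (x axis) for Pitx1, Gsc, Hand2, Lhx3 and the sum of 8 loci with the Hox genes of paralogue groups 3 to 5; vertical lines part WT, HET and KO. KO1 and KO2 are low in all 5 measures, most of all in Hand2 and the Hox sum, and KO4, KO5 and KO6 are above 100 in all of them.

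Hesx1, a paired-type homeodomain repressor and one of the earliest markers of the pouch, was the gene of the set that separated KO from WT. It lies on chromosome 14 from 26994416 to 27002329 on the plus strand (mm10), with 4 or 5 exons, and no other locus of the files lies within 10 kb of it. The WT libraries held 0.109, 0.140, 0.186, 0.0751 and 0.119 FPKM, the HET libraries 0.196, 0.0775 and 0.218, and the KO libraries 0.485, 0.206, 0.391, 0.435, 0.351 and 0.277. Every KO library was above every WT library, and KO2, the lowest, was below the highest HET library. The means were 0.126 ± 0.04 (SD, n = 5), 0.164 ± 0.08 (SD, n = 3) and 0.358 ± 0.10 FPKM (SD, n = 6) in WT, HET and KO, so KO was 2.85 times WT. Exact permutation of the library labels (two-sided) gave p = 0.00433 for KO against WT, p = 0.0476 for KO against HET and p = 0.357 for HET against WT, 3 of the 9 tests made on the genes under the filter, with no adjustment.

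Hesx1 was also called in a limma-trend fit of all 47204 loci above 0 in some library, at a log2 difference of 1.01 (SE 0.21, interval 0.54 to 1.47, limma-trend adjusted p = 0.00535). In that fit 9.97% of loci were called higher in KO. Among the 5638 loci whose WT mean was within 2-fold of that of Hesx1, 15.0% had every KO library above every WT library, so a separation of this kind at this level was common in KO heads. At well under 1 FPKM, Hesx1 rested on few fragments, and its number of reads is unknown. Without KO1 and KO2 the difference in FPKM was 0.238 against 0.232 with them.

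Sequences just before the transcription start are shown for the gene that separated the genotypes, Hesx1, and for the members with the core TAATTA, which LIM and other homeodomain proteins can bind. They are the 250 bases before the RefSeq start in GRCm38.p6, written 5′ to 3′ on the gene's strand, and capitals mark TAATTA and the TATA box letters TATAAA. The Hesx1 stretch is chr14:27000112-27000361 (plus strand) and precedes the start of the shorter transcript, inside the first intron of the longer one. The Cga stretch is chr4:34893529-34893778 (plus strand), and the Tbx19 stretch chr1:165160774-165161023 (minus strand).
Hesx1: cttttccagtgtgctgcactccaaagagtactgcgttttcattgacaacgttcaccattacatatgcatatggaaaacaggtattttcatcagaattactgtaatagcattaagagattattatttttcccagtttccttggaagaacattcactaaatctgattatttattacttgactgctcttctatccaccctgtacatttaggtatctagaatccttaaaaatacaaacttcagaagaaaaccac
Cga: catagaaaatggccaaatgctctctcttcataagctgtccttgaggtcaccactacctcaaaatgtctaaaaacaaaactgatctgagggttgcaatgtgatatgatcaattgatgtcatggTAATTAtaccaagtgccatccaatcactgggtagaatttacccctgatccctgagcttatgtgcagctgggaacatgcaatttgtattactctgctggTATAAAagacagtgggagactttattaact
Tbx19: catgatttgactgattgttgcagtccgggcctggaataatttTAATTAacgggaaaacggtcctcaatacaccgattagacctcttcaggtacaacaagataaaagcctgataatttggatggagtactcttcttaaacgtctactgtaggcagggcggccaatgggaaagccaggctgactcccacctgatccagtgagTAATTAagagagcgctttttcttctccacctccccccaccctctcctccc
Of the 9 such stretches matched to 7 members, TAATTA, which reads the same on both strands, occurred in 2, once before Cga and at 2 places before Tbx19. TATAAA, searched on both strands, occurred in 3, those of Cga, of Lhx3 and of Pou1f1, and GGATTA, the core bound by PITX proteins, in 0. These motifs do not overlap one another. Among 32851 mouse promoter stretches of the same length, 4.84% held TAATTA, 12.4% TATAAA and 6.25% GGATTA. The stretch of Hesx1 held none of the 3, which says only that these letters are not in it.

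Six6, a SIX-family homeodomain factor of pituitary, hypothalamus and retina, lies on chromosome 12 from 72939892 to 72944899 on the plus strand and has 2 exons. The WT libraries held 1.46, 1.40, 1.07, 1.79 and 1.40 FPKM, the HET libraries 1.56, 1.42 and 1.44, and the KO libraries 2.55, 1.94, 1.17, 1.73, 1.51 and 1.48. KO1 and KO2 were above every WT library and the other KO libraries lay inside the WT range. The means were 1.42 ± 0.256 FPKM (SD, n = 5) in WT and 1.73 ± 0.477 (SD, n = 6) in KO. The log2 difference of KO from WT was 0.24 (SE 0.17, interval -0.11 to 0.60, limma-trend adjusted p = 0.342), and 0.05 without KO1 and KO2. That of HET from WT was 0.06 (interval -0.37 to 0.49, limma-trend adjusted p = 1).

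The start of Six6 lies inside Six6os1, a gene on the opposite strand that GENCODE M21 lists as protein-coding. The strand setting of the counting is not given, so fragments of both may not have been told apart. Six6os1 was at 3.01 ± 0.47 FPKM (SD, n = 5) in WT and 3.55 ± 0.84 (SD, n = 6) in KO, a log2 difference of 0.21 (SE 0.16, limma-trend adjusted p = 0.402). Retinal RNA did not follow Six6 in KO1 and KO2. The 13 listed retina genes summed to 182.9 and 193.0 FPKM in KO1 and KO2, within the KO range of 180.3 to 199.3 and below all WT libraries, at 194.4 to 221.4. Of the 11 tested, 0 were called higher and 1 lower in KO against WT, where 19.0% and 5.61% of all tested loci were. This was Rlbp1, a retinoid-binding protein of retinal support cells, which fell by 0.60 on the log2 scale (limma-trend adjusted p = 0.0184). The part of retinal tissue in the Six6 values was not tested. The loci that followed Six6 most closely over 14 libraries were Dnmt1 (r = 0.88, and 0.64 without KO1 and KO2), the maintenance DNA methyltransferase, Tdp1 (0.81), a DNA repair enzyme, and Prss22 (0.81), a serine protease.

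Lhx3, the LIM-homeodomain factor on chromosome 2 from 26200212 to 26208289 (minus strand, up to 6 exons), had nearly the same mean in the 3 genotypes. The WT libraries held 1.30, 0.852, 1.13, 1.02 and 1.11 FPKM, the HET libraries 1.26, 0.722 and 0.997, and the KO libraries 0.760, 0.709, 0.699, 1.47, 1.73 and 1.21. KO1, KO2 and KO3 were below every WT library, and KO4 and KO5 were above every one. Mean Lhx3 was 1.08 ± 0.163 FPKM (SD, n = 5) in WT and 0.992 ± 0.268 (SD, n = 3) in HET heads, and KO heads had 1.10 ± 0.441 (SD, n = 6). The log2 difference of KO from WT was -0.06 (SE 0.23, interval -0.54 to 0.43, limma-trend adjusted p = 0.899), and that of HET from WT was -0.14 (interval -0.72 to 0.45, limma-trend adjusted p = 1). Without KO1 and KO2 the KO difference turned to 0.16.

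Among the KO libraries, those low in Lhx3 were also low in Hox RNA, which was not so in WT and HET. The 10 Hox genes of paralogue groups 3 to 5, active in hindbrain, neck and arches and listed after the data had been seen, fall in 8 loci, some of them shared with neighbouring Hox genes. These summed to 6.89, 1.23 and 20.6 FPKM in KO1, KO2 and KO3 and to 54.4, 83.3 and 44.6 in KO4, KO5 and KO6. In WT they ranged from 23.5 in WT1, the WT library with the most Lhx3, to 57.1 in WT2, the one with the least. HET4, lowest of the HET libraries in Lhx3, was at 43.5, between 13.5 in HET5 and 53.3 in HET3. The 3 loci most like Lhx3 over the 14 libraries were the weaker of the loci named Hoxa3 (r = 0.86), Pidd1 (0.85), a death-domain protein of the p53 response, and Ankrd24 (0.85). That Hoxa3 locus was listed at 0 in 7 of the 14 libraries: WT2, WT4, WT5, HET4, KO1, KO2 and KO3. It was at 0.209 and 0.237 FPKM in WT1 and WT3, and at 0.396 and 0.0748 in HET3 and HET5. KO4, KO5 and KO6, at 1.55, 1.12 and 0.713 FPKM, were above all other libraries. Its correlation with Lhx3 thus rests in part on values of 0, which may be missing estimates. The list of motor neuron and hindbrain interneuron genes, which share LIM factors with the pituitary, summed to 39.5 to 46.4 FPKM in WT, 39.9 to 44.4 in HET and 34.2 to 45.5 in KO. Of its 9 tested genes, 0 were called in KO against WT, where 24.6% of all tested loci were. None of the list was at 0 in any library. How much of the Lhx3 spread comes from how much hindbrain or neck each sample held was not tested.

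Lhx4, its close relative on chromosome 1 (155698031 to 155751684, minus strand, 6 exons in the main transcript), was the steadiest of the set in WT heads. Lhx4 in the WT libraries was at 0.927, 0.805, 0.867, 0.877 and 0.902 FPKM, in HET at 0.829, 0.711 and 0.890, and in KO at 0.972, 0.559, 0.870, 1.08, 1.08 and 0.990. KO2 was the lowest of all libraries, and KO1, KO4, KO5 and KO6 were above every WT library. WT heads averaged 0.875 ± 0.046 FPKM (SD, n = 5) and KO heads 0.925 ± 0.196 (SD, n = 6). The log2 difference of KO from WT was 0.05 (SE 0.15, interval -0.26 to 0.36, limma-trend adjusted p = 0.862) and that of HET from WT was -0.10 (interval -0.48 to 0.27, limma-trend adjusted p = 1). Among the alternatives run, only under quantile normalization of the FPKM values, which forces all libraries to one distribution, were Lhx3 and Lhx4 called lower in KO. Their log2 differences were then -0.74 (limma-trend adjusted p = 0.0305) and -0.74 (limma-trend adjusted p = 0.0176), beside a median of -0.69 over the 3153 tested loci with a WT mean of 0.5 to 2 FPKM, and 20.9% of all tested loci were called lower.

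**Figure D3:**
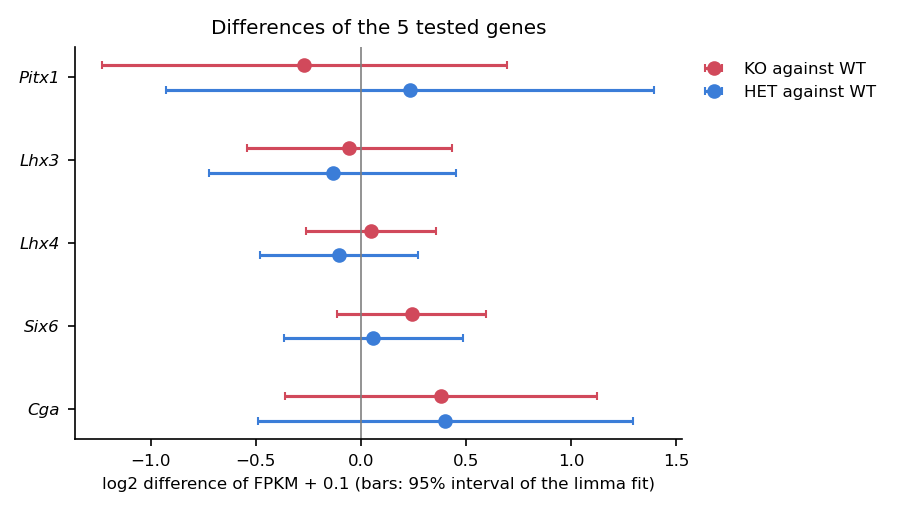
Log2 differences of FPKM + 0.1 (x axis) from WT for the 5 genes that passed the filter, KO in red and HET in blue, with 95% intervals from the limma fit. All 10 intervals include 0, and they are narrowest for Lhx4 and Six6 and widest for Pitx1.

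The lineage factors were at the edge of detection. Tbx19 (chromosome 1, 165137855 to 165160773, minus strand, 8 exons in the main transcript) was at 0.0454, 0.0339, 0.0106, 0.0228 and 0.0117 FPKM in WT, 0.00990, 0.0197 and 0.0679 in HET, and 0.0106, 0.0346, 0, 0.0266, 0.0176 and 0.157 in KO. The groups overlapped and KO6 stood above all other libraries. The two-sided exact permutation p for KO against WT was 0.849. Pou1f1 (chromosome 16, 65520511 to 65535005, plus strand, 6 exons in the main transcript) was listed at 0 in 9 of the 14 libraries. It was at 0.0354 and 0.0340 FPKM in WT4 and WT5, at 0.0166 and 0.0396 in HET3 and HET5, and at 0.0219 in KO2, with an exact permutation p of 0.364 for KO against WT. A difference in either gene was not detectable at these levels.

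Cga, on chromosome 4 from 34893779 to 34907370 (plus strand, 4 or 5 exons), was measured in every library. Values in WT were 0.522, 0.862, 0.129, 0.493 and 0.902 FPKM, those in HET 0.513, 0.585 and 1.12, and those in KO 0.951, 0.515, 0.752, 0.965, 0.410 and 0.702. The 3 groups overlapped, and WT3 was the lowest of all. Mean Cga was 0.582 ± 0.315 FPKM (SD, n = 5) in WT and 0.716 ± 0.225 (SD, n = 6) in KO. The log2 difference of KO from WT was 0.38 (SE 0.35, interval -0.36 to 1.12, limma-trend adjusted p = 0.492) and that of HET from WT was 0.40 (interval -0.49 to 1.30, limma-trend adjusted p = 1). The KO interval includes both 0 and a log2 difference of 1.

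An unnamed locus just upstream of Cga rose in KO heads. It spans chromosome 4 from 34886599 to 34891239 and ends 2540 bases before the Cga start, short of the promoter stretch printed for Cga. In WT it was at 0.507, 0.323, 0.533, 0.369 and 0.367 FPKM, in HET at 0.281, 0.195 and 0.345, and in KO at 3.03, 3.37, 2.77, 3.94, 4.51 and 4.02. Every KO library was above every WT and HET library, the first of which holds for 15.3% of tested loci. KO heads exceeded WT heads by 2.83 on the log2 scale (SE 0.16, limma-trend adjusted p = 1.9e-09). Cga lay within the WT range or just above it in the same KO libraries. The strand of the locus is not given in the files.

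Near the other members, 1 more locus changed. Of 19 loci within 10 kb of the members' loci, 9 were tested, and 2 were called higher and 0 lower in KO against WT, where 19.0% and 5.61% of all tested loci were, and 0 were called in HET against WT. The second was the weaker of the loci named Chmp2b, a component of the endosomal sorting machinery, in a range that begins 4128 bases past the end of Pou1f1. WT heads had 0.819 ± 0.254 FPKM of it (SD, n = 5), HET heads 0.824 ± 0.239 (SD, n = 3) and KO heads 2.92 ± 0.474 (SD, n = 6), a log2 difference of 1.74 (SE 0.17, limma-trend adjusted p = 9.4e-07). The stronger Chmp2b locus, in the same range, was at 34.1 and 30.8 FPKM in WT and KO (limma-trend adjusted p = 0.197). Qsox2 and Ccdc187 by Lhx3, Acbd6 by Lhx4, Six6os1 and RP23-113F14.4 by Six6 and Zfp292 by Cga were not called.

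**Figure D4:**
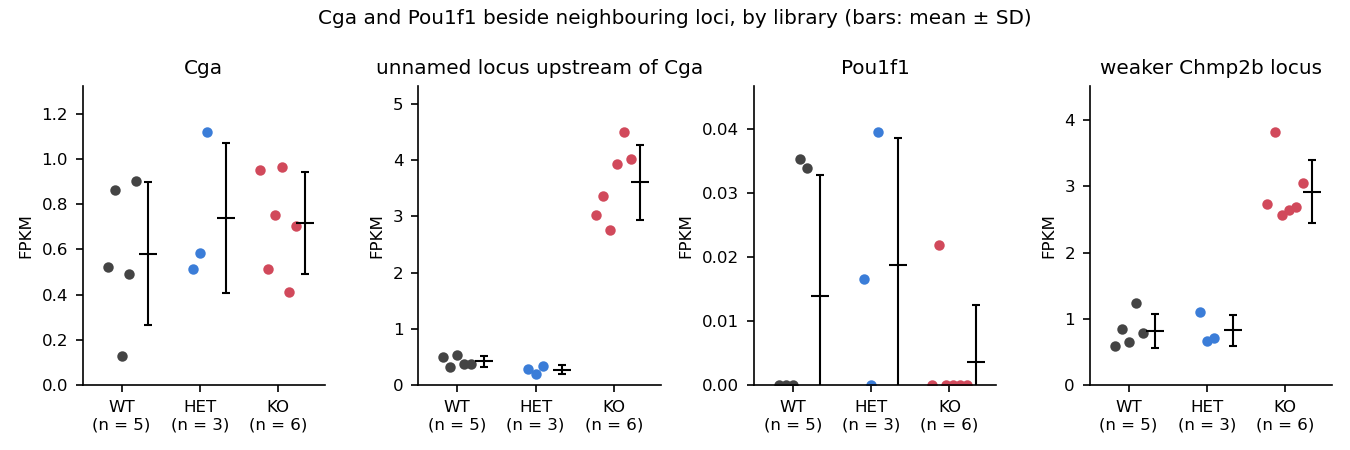
FPKM (y axes, 1 scale per panel) in WT, HET and KO libraries (points, with mean and SD) of Cga and the unnamed locus upstream of it, and of Pou1f1 and the weaker Chmp2b locus past its end. In both neighbours all KO libraries are above all others, while Cga and Pou1f1 overlap between the genotypes.

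Other factors of pituitary development were read from a list of 24, all tested. Of these, 2 were called higher and 0 lower in KO against WT, where 19.0% and 5.61% of all tested loci were, with a median log2 difference of 0.07, and 0 were called in HET against WT. Gata2, a zinc-finger factor of gonadotropes and thyrotropes that is widely used outside the pituitary, rose by 0.20 (SE 0.06, limma-trend adjusted p = 0.0338) from 11.5 ± 0.67 FPKM (SD, n = 5) to 13.2 ± 1.22 (SD, n = 6). The locus of Sox2, a factor of neural and pituitary progenitors, also carries the non-coding Sox2ot and small RNA genes, whose fragments were counted with it. It rose by 0.23 (SE 0.08, limma-trend adjusted p = 0.0469) from 68.0 ± 6.12 FPKM (SD, n = 5) to 79.9 ± 9.67 (SD, n = 6). Both calls were close to the threshold. Gata2 was lost in 13 and the Sox2 locus in 16 of 26 alternatives, among them the one without KO1 and KO2 (limma-trend adjusted p = 0.135 and 0.151), and leaving out 1 library gave adjusted p of up to 0.0988 and 0.124.

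Among 15 signals that pattern the primordium, 1 was called higher and 0 lower in KO against WT, where 19.0% and 5.61% of all tested loci were. The median log2 difference was -0.05. Shh, the hedgehog ligand of oral ectoderm and ventral forebrain, was at 4.39, 4.22, 4.47, 4.34 and 4.37 FPKM in WT, 3.76, 4.78 and 4.74 in HET and 6.63, 5.31, 4.50, 7.07, 5.95 and 6.31 in KO. Every KO library was above every WT library, as in 15.3% of tested loci, KO3 by the least, and the log2 difference was 0.43 (SE 0.10, limma-trend adjusted p = 0.0058). Its receptor and target Ptch1 differed by 0.10 (limma-trend adjusted p = 0.266). Fgf8 differed by 0.37 (limma-trend adjusted p = 0.222), and Bmp4, which with FGFs starts the pouch, by -0.05 (limma-trend adjusted p = 0.783). Wnt4 differed by -0.24 (limma-trend adjusted p = 0.0599).

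Of 13 hormones, receptors and secretory proteins, 5 were tested, 1 was called higher and 2 lower in KO against WT. Over all tested loci, 19.0% were called higher and 5.61% lower. The median log2 difference of the 5 was -0.26. Pomc, the precursor of ACTH made by corticotropes and by neurons of the ventral hypothalamus, was at 2.50, 2.15, 1.93, 2.97 and 2.26 FPKM in WT, 2.14, 2.44 and 2.53 in HET and 18.6, 17.3, 16.4, 19.0, 20.9 and 19.5 in KO. No KO library came near the WT or HET range, and the log2 difference was 2.94 (SE 0.10, limma-trend adjusted p = 1.5e-11). In the same libraries Tbx19, which activates Pomc in corticotropes, was at 0 to 0.157 FPKM. Chgb and Scg2, granins of secretory vesicles in endocrine cells and neurons, fell by 0.27 (limma-trend adjusted p = 0.0052) and 0.46 (limma-trend adjusted p = 0.0088) on the log2 scale. Gh was listed at 0 in all 14 libraries.

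Some genes of the tissues around the pouch were called. For the counts below, 19.0% of all tested loci were called higher in KO against WT and 5.61% lower. In the list of 11 genes of ventral hypothalamus and infundibulum, 1 was called higher in KO and 0 lower, Otp, a homeodomain factor of neuroendocrine neurons, with a difference of 0.32 (limma-trend adjusted p = 0.0224). Of 10 genes of oral and surface epithelium, the tissue from which the pouch arises, 0 were called higher and 5 lower in KO, with a median log2 difference of -0.23. These were Krt5, Krt14 and Krt15, keratins of basal epithelium, Trp63, its defining factor, and Perp, a desmosome protein, with differences of -0.76, -0.68, -0.83, -0.35 and -0.42. Their list summed to 126.7 to 171.2 FPKM in WT, 138.7 to 144.0 in HET and 102.4 to 123.7 in KO. The 5 genes not called summed to 52.9 to 64.8 FPKM in WT and 52.1 to 59.7 in KO. This split was made by the calls in these same libraries, so it cannot show independently which genes carry the lower sum. Pitx1, which oral epithelium also makes, was at its highest in KO4, KO5 and KO6. There the whole list of 10 summed to 102.6, 111.7 and 123.7 FPKM, and the 5 genes not called to 56.9, 56.1 and 59.7. A link between them and Pitx1 was not tested.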

How the data were processed

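Polyadenylated RNA of 14 whole-head libraries had been sequenced from stranded libraries, per the labels' protocols. The submitters' processing notes name TopHat2 2.1.0, Cuffdiff and mm10. How strand was treated in the counting is not given there. The authors deposited FPKM values per locus and a matrix of log2 FPKM values, quantile normalized and blank where the FPKM is 0. The files hold no counts, so total depth is unknown.

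From these, log2(FPKM + 0.1) was fitted with limma-trend (limma 3.58.1, R 4.3.3, robust moderation), 1 mean per genotype and no covariate, and the fit was checked on simulated data. Genes under the filter were compared by exact permutation (scipy 1.17.1). Gene models came from GENCODE M21 and promoter sequences from RefSeq. The members and lists were chosen with earlier results of these data known. Named were the 8 members, tested loci within 10 kb of them, the called genes of each list or else its 2 smallest p-values, and the 3 loci most like each member with a mean of at least 1 FPKM. Not every gene the rule takes is reported, and some were named beyond it after their values had been seen. Alternatives were pseudocounts of 0.5 and 1, other filters and scalings, the authors' matrix, a replicate block, library weights, sex as a covariate, only the 2 groups compared, and leaving out libraries.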

Additional observations from a re-analysis of the deposited data

Results flagged for a closer look

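Among 16 groups of WT or KO values examined, 2 held a library far from the rest. Chance gives about 1 in 20, a rate that does not apply to groups with values at 0. Tbx19 was at 0.157 FPKM in KO6, against 0.0346 in the next highest KO library and a KO median of 0.0221. Pou1f1 was at 0.0219 FPKM in KO2 and listed at 0 in the other 5 KO libraries, where any value above 0 stands apart. Both genes were near 0 throughout.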

How the results depend on the processing

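The number of pituitary genes called in KO against WT was 0 under 24 of 26 alternatives, 1 with no filter (Hesx1) and 2 under quantile normalization (Lhx3 and Lhx4), and stayed 0 in HET against WT and KO against HET wherever those were run. No pairing of libraries by replicate number was visible, though such correlations cannot exclude one. Deviations of same-numbered libraries correlated between -0.114 and 0.1, and those of differently numbered ones between -0.115 and 0.106. With the number as a replicate block, 0 members were called, Pitx1 in HET turned to -0.051, Tbx19 without the filter to -0.083, and the 3 pituitary lists had 2 genes higher in place of 4, as Gata2 and the Sox2 locus were lost. Those lists also had 2 higher with no filter, at a common median and with only the 2 groups compared, 8 with library weights and 18 in the authors' matrix, whose median over all loci was 0.20. Lower in them, main value 2, were 5 at a common median, 7 under quantile normalization, 0 in the authors' matrix, 4 with library weights and 4 without KO1 and KO2. Leaving out 1 library gave 2 to 8 higher, the most without KO3, and 2 to 5 lower. The loci near the members, main value 2, had 4 called with no filter, 6 in the authors' matrix, and 2 to 4 when leaving out 1 library, the most without KO3.

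Differences near 0 changed sign. Leaving out 1 library gave Lhx3 in KO -0.19 to 0.045 (above 0 without WT1, KO1, KO2 or KO3), Pitx1 in KO -0.46 to 0.066 (above 0 without KO2), Lhx3 in HET -0.31 to 0.055 (without HET4), Six6 in HET -0.032 (without WT3) to 0.14, and Tbx19 -0.0070 (without KO6) to 0.024 FPKM. In KO, Lhx3 and Pitx1 turned to 0.15 and 0.052 with library weights and to 0.16 and 0.35 without KO1 and KO2. Quantile normalization turned Lhx4 to -0.74, Six6 to -0.24, Cga to -0.79 and RP23-113F14.4 to -0.58, and sex as a covariate turned Lhx4 to -0.00017. In the authors' matrix Lhx4 was -0.026 in KO and 0.013 in HET, Acbd6 0.028, the stronger Chmp2b locus 0.014, Qsox2 0.35, Chgb 0.0086 and Wnt4 0.20. The cause was not tested. Unknown depth limits Hesx1, Tbx19 and Pou1f1 most.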

Other observations

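An unnamed locus downstream of Pitx1, in the range of Catsper3, was at 8.62 FPKM in KO3 and listed at 0 in the other 13 libraries. A further unnamed locus upstream of Lhx3, in the range of Ccdc187, was listed at 0 in all WT and HET libraries and in KO1, and was at 0.0998 to 0.243 FPKM in KO2 to KO6. Neither passed the filter on low values, so neither was tested.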
